A study of Drosophila melanogaster with 8 samples.

Results

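The enzymes that take sugar from its stores to carbon dioxide form one chain across 2 compartments of the cell, and 36 of their genes were followed here in the pulsing vessel that circulates the hemolymph of Drosophila melanogaster larvae. The genes were chosen from a written list by the name of the enzyme, and all 36 were found among the 13301 genes of the array, 34 by the symbol in the files and 2 through the locus tag. They comprised 12 genes of glycolysis, 3 of lactate and glycerol phosphate metabolism, 4 of sugar stores and gluconeogenesis, 4 of the pyruvate dehydrogenase complex, 11 of the tricarboxylic acid (TCA) cycle and 2 cytosolic dehydrogenases that run beside the cycle. Of these, 20 were counted as cytosolic and 16 as mitochondrial from the known place of their enzymes.

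Glycolysis splits glucose to pyruvate in the cytosol, and pyruvate is then turned to acetyl-CoA by pyruvate dehydrogenase and oxidised in the mitochondrial TCA cycle. In fly larvae, lactate dehydrogenase and glycerol-3-phosphate dehydrogenase return NAD+ to glycolysis, which lets it run fast during growth. Trehalose, made from glucose mainly in the fat body, is the chief sugar of the hemolymph, while glycogen is stored within fat body and muscle cells.

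This dorsal vessel is made of a heart, the pumping chamber at the rear, and an aorta that leads forward from it. RNA from larvae of the third instar, of the wild-type strain given as yw; Canton S, raised at 25 °C, was hybridised in pairs of RNAs, 1 in each dye, to 8 arrays of long oligonucleotides. Pools of 10 dissected hearts were set against pools of 10 aortae on 4 arrays, the organ having been cut at the cardiovascular valve. Pools of 5 entire dorsal vessels were set against pools of 5 whole larvae on the other 4 arrays. Every RNA was amplified over 2 rounds, and the 4 biological replicates of a comparison carried each RNA in Cy3 on 2 arrays and in Cy5 on 2. Whole larvae hold their own dorsal vessels as well as body wall muscle, fat body, gut and all other tissues, so that comparison sets an organ against a mixture. In such bulk RNA, fewer cells of a type and less RNA per cell cannot be told apart.

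The signal was low, with a median gene spot of 1.22 to 2.48 fluorescence units (RFU) per channel, and 28.3 to 51.2% of oligonucleotides lay above the detection level of a channel. Ratios are given as log2 of heart over aorta or of dorsal vessel over whole larva after background correction and normalization within each array, listed for replicates 1 to 4. RFU values are the spot brightness before either step, so they also carry differences between channels. On replicate 4 of the dorsal vessel comparison the median gene spot read 1.22 RFU in dorsal vessels and 2.32 RFU in whole larvae. Cardiac markers marked the dissected organ, with 5 of 6 higher in the dorsal vessel, Hand by 5.56 ± 0.33 (log2 ratio ± SE, adjusted p = 6.04e-05), while svp was lower (-2.19). Between heart and aorta 1 of these 6 differed, tin, which was lower in the heart (-0.52, adjusted p = 0.0369). Across the tested genes the 4 dorsal vessel arrays correlated at 0.791 to 0.890, whereas those of heart against aorta correlated at -0.481 to 0.479, the lowest value being that of replicates 1 and 3. A block of 656 spots lay out of place on 3 arrays, and 0 of the 36 genes had a spot in it.

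A gene was tested in a comparison where its oligonucleotide was brighter, in 1 or both RNAs and on 2 or more of the 4 arrays, than 95% of the negative control and empty spots. In each comparison 31 of the 36 genes passed. Hex-C, ScsbetaA (skap on the array), Scsalpha1 (Scsalpha) and Fum1 (l(1)G0255), which encode a second hexokinase, both subunits of a succinyl-CoA synthetase and a fumarase, were above detection in neither comparison. Tpi was not tested for heart against aorta and Pglym78 not for dorsal vessel against whole larva. Against whole larvae, 26 genes were detected in both RNAs, 4 (Pfk, Tpi, Pgk and Eno) in whole larvae alone and kdn in the dorsal vessel alone. Such genes passed through their brighter RNA, so counts over the genes that passed are descriptions.

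In the dorsal vessel, 11 of 18 tested cytosolic genes, which include the 2 dehydrogenases beside the cycle, were lower than in whole larvae. The set of 36 holds no succinate dehydrogenase. Of its 12 tested genes of the TCA cycle and pyruvate dehydrogenase, 1 was higher and 0 lower. Of the 31 genes tested, 12 were lower and 2 higher at an adjusted p below 0.05, and 17 did not pass. Over all 6950 genes tested, 21.6% were lower and 14.1% higher (35.7% called), with a median ratio of -0.06. Of the 31 genes, 14 lay below 0 and 5 above 0 on all 4 arrays, where 35.7% and 25.3% of all tested genes did. Of the cytosolic genes 1 (Treh) was higher, and of 13 mitochondrial genes 1 was lower and 1 higher. Among genes detected in both RNAs the counts were 10 lower of 14 cytosolic and 1 of 12 mitochondrial genes, where 15.7% of all such genes were lower. The difference between the 2 compartments was not itself tested.

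**Figure D1:**
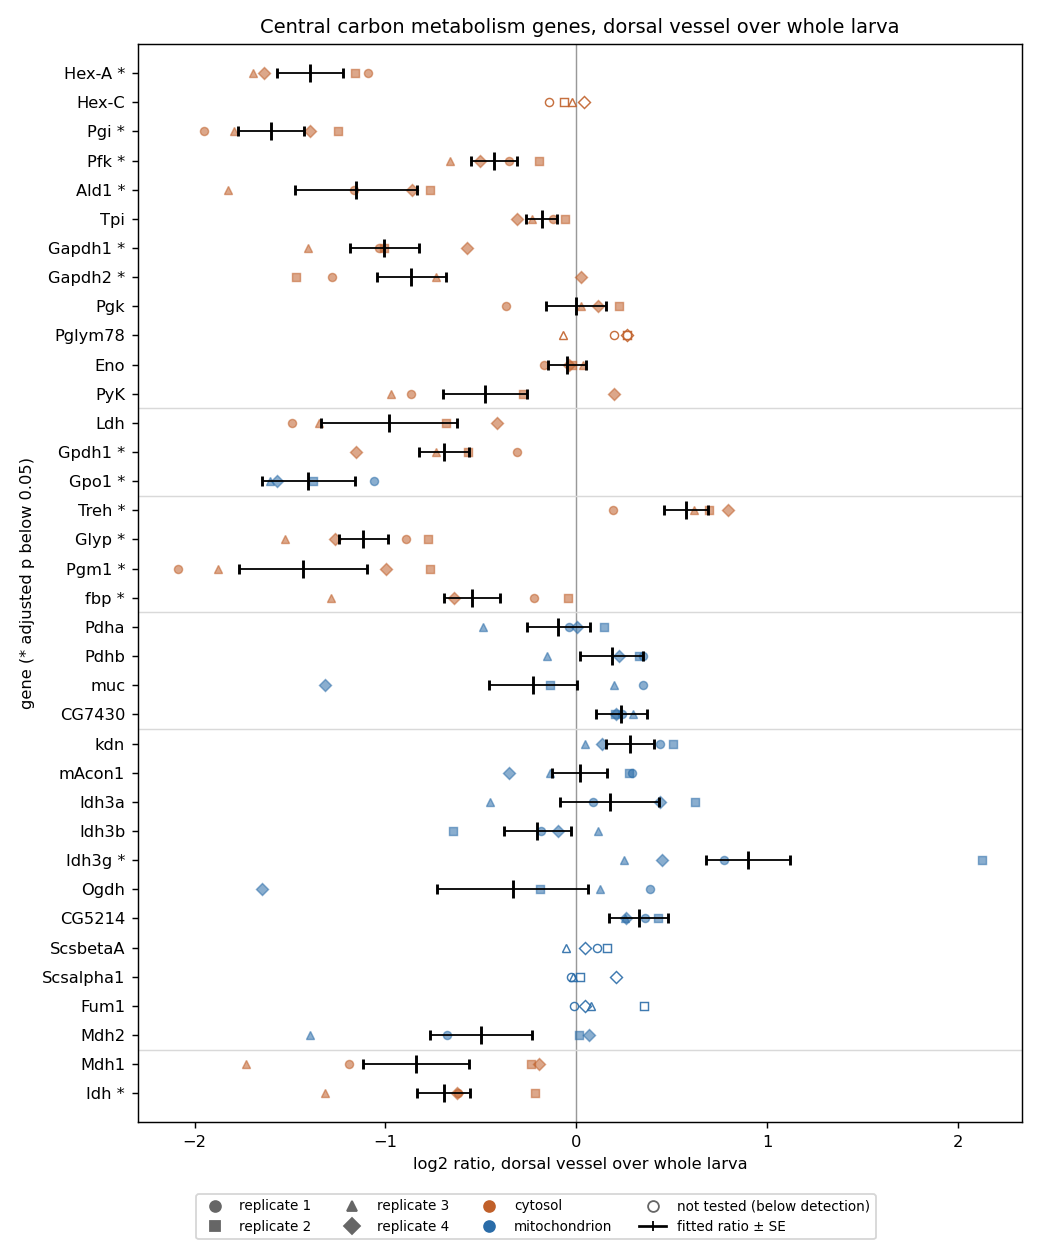
Log2 ratio of dorsal vessel over whole larva (x axis) for each of the 36 genes (rows, in pathway order with lines between the groups) on each of 4 arrays (symbols), with the fitted ratio ± SE as a black bar. Cytosolic genes (orange) lie mostly left of 0, down to the fitted -1.60 of Pgi, while genes of the cycle (blue, lower rows) lie around 0, and open symbols mark genes below detection.

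Of 10 tested genes of glycolysis 6 were lower and 0 higher, also before adjustment of p, and all 10 fitted ratios were below 0, with a median of -0.67. Among these 10, Pfk, Tpi, Pgk and Eno passed the detection filter through whole larvae alone, so the counts are descriptions. The fit of Pgk, at -0.0022 ± 0.16, was close to 0, and 3 of its 4 arrays lay above 0. Pgi, which turns glucose-6-phosphate into fructose-6-phosphate, read 5.62, 4.91, 5.02 and 3.32 RFU in dorsal vessels, against 23.2, 12.4, 18.7 and 18.5 RFU in whole larvae. Its ratios were -1.95, -1.25, -1.80 and -1.40, with a fit of -1.60 ± 0.17 (adjusted p = 0.000742), or 3.03-fold less. Hex-A, the hexokinase that commits glucose to the cell, read 5.67, 11.3, 9.88 and 3.75 RFU in dorsal vessels, against 12.3, 24.0, 27.5 and 21.8 RFU in whole larvae. The Hex-A ratios of -1.09, -1.16, -1.69 and -1.64 gave a fit of -1.40 ± 0.17 (adjusted p = 0.00133).

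Pfk, the phosphofructokinase that sets the pace of glycolysis, was dim. It was above detection on 0 of 4 arrays in dorsal vessels and on 3 in whole larvae, with ratios of -0.35, -0.20, -0.66 and -0.51 (fit -0.43 ± 0.12, adjusted p = 0.0313). The dorsal vessel spot was also set to the detection level (that exceeded by 5% of negative control and empty spots) where it lay below it. On this corrected scale Pfk was 1.34-fold lower, as a mean over the 4 arrays without an error. The offset of the background correction draws the ratios of dim spots towards 0, and without that correction the fit for Pfk was -0.75. Ald1 (Ald on the array), the aldolase that splits the 6-carbon sugar, had ratios of -1.16, -0.77, -1.82 and -0.86, lowest on replicate 3 and below 0 on all 4 arrays, with a fit of -1.15 ± 0.32 (adjusted p = 0.0301). Its brightness averaged 15.7 ± 3.34 RFU in dorsal vessels and 34.9 ± 12.5 RFU in whole larvae (SD, n = 4 each).

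Both genes for glyceraldehyde-3-phosphate dehydrogenase, the enzyme that makes the NADH of glycolysis, passed the test as lower, and both calls depended on the normalization. Gapdh1 had ratios of -1.04, -1.01, -1.41 and -0.57 with a fit of -1.01 ± 0.18 (adjusted p = 0.00633), and Gapdh2 of -1.28, -1.47, -0.73 and 0.025 with a fit of -0.86 ± 0.18 (adjusted p = 0.0111). Gapdh2 was below 0 on replicates 1 to 3 and close to 0 on replicate 4. The RFU values of these bright spots overlapped between the groups for both genes, with 186, 202, 263 and 226 RFU in dorsal vessels and 241, 329, 303 and 306 RFU in whole larvae for Gapdh1. For Gapdh2 they were 443, 370.0, 768 and 584 RFU in dorsal vessels and 599, 802, 458 and 469 RFU in whole larvae. In the log2 ratios of the authors' value table Gapdh1 stood at -0.24 (adjusted p = 0.383) and Gapdh2 at 0.24 (adjusted p = 0.383), and with median centring in place of loess at -0.34 and -0.041 (adjusted p = 0.265 and 0.922). The direction of Gapdh2 turned in the value table and held with median centring, that of Gapdh1 held in both, and both calls were lost in both.

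The remaining tested genes of glycolysis did not pass. Pyruvate kinase PyK, the last enzyme of the pathway, had ratios of -0.87, -0.28, -0.97 and 0.20, with replicates 1 and 3 lower than 2 and 4 (fit -0.48 ± 0.22, adjusted p = 0.120). Without replicate 4 it passed as lower (-0.78, adjusted p = 0.0246). Tpi, the triose phosphate isomerase, was not above detection on any array in dorsal vessels and was above it on 2 in whole larvae (fit -0.18 ± 0.082, adjusted p = 0.118). It passed at -0.56 without background correction (adjusted p = 0.0303). The phosphoglycerate kinase Pgk (-0.0022 ± 0.16) and the enolase Eno (-0.049 ± 0.099) were also near detection, at 2.15 ± 0.560 and 2.08 ± 0.760 RFU in dorsal vessels, against 2.25 ± 0.344 and 2.58 ± 0.361 RFU in whole larvae, a brightness at which the offset compresses ratios.

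Of the 3 genes of lactate and glycerol phosphate metabolism, 2 were lower and 1 did not pass. Gpo1 (Gpo-1), the mitochondrial glycerol-3-phosphate dehydrogenase that passes electrons from the cytosol to the respiratory chain, read 2.02, 2.44, 3.24 and 2.30 RFU in dorsal vessels, against 5.86, 7.82, 11.6 and 15.2 RFU in whole larvae. Its ratios were -1.06, -1.38, -1.61 and -1.57, with a fit of -1.40 ± 0.24 (adjusted p = 0.00572). It was the 1 mitochondrial gene that was lower. Lactate dehydrogenase Ldh (ImpL3), which turns pyruvate to lactate, had ratios of -1.49, -0.68, -1.35 and -0.42, below 0 on every array, and a fit of -0.98 ± 0.36 that did not pass (adjusted p = 0.0661). It passed when the 4 arrays were fitted alone (adjusted p = 0.0215).

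The cytosolic glycerol-3-phosphate dehydrogenase Gpdh1 (Gpdh) differed between its oligonucleotides. The oligonucleotide of transcript RB, the brightest and the one that stood for the gene, had ratios of -0.31, -0.57, -0.74 and -1.16 and a fit of -0.69 ± 0.13 (adjusted p = 0.00821). That of transcript RC had 0.21, 0.092, -0.062 and -0.46 (fit -0.055 ± 0.34, adjusted p = 0.907). The oligonucleotide matching transcripts RA, RB and RC had 0.54, 0.16, 0.13 and 0.079, above 0 on all 4 arrays, with a fit of 0.23 ± 0.13 (adjusted p = 0.185). The lower call of Gpdh1 therefore belongs to the RB oligonucleotide, and the mean over the 3 gave -0.17 (adjusted p = 0.442).

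The other genes with several oligonucleotides gave less to compare. For Gapdh1, an oligonucleotide printed on 16 spots as a control and the gene's own single spot gave fits of -1.01 ± 0.18 and -0.96 ± 0.20, both lower (adjusted p = 0.00633 and 0.0113). The SD over the 16 spots within an array was 0.11 to 0.20 on the dorsal vessel arrays, below the SD of 0.34 between these arrays. Of 2 oligonucleotides for Pdhb and 2 for Tpi, 1 of each was below detection on every dorsal vessel array in both RNAs.

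**Figure D2:**
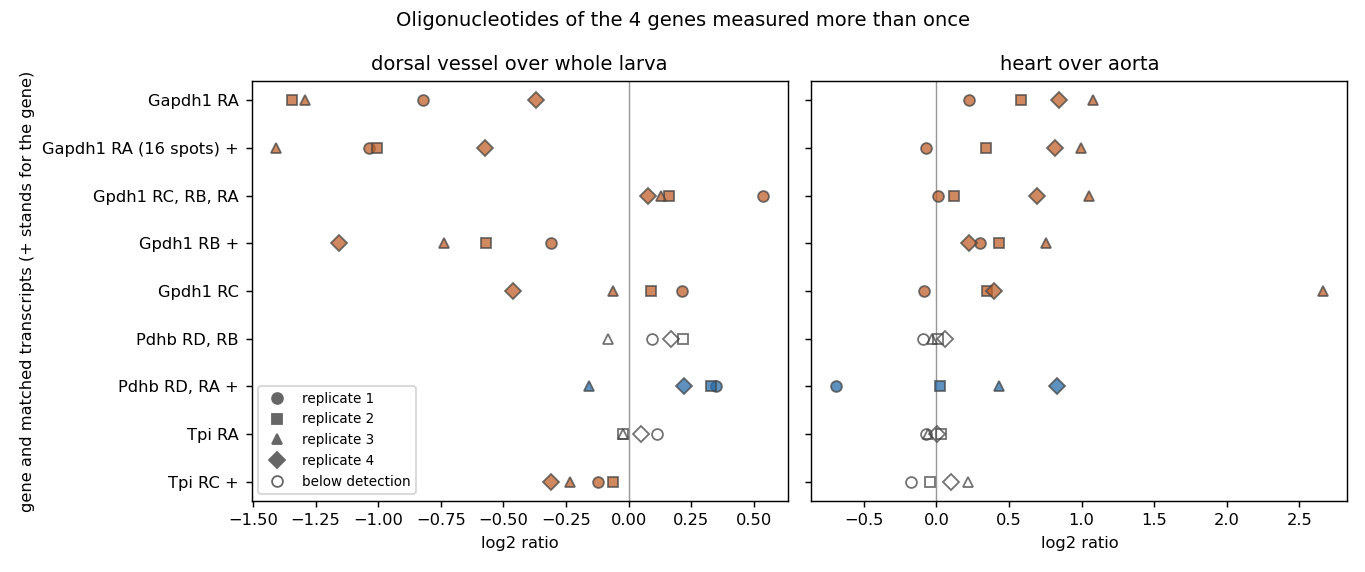
Log2 ratio of each oligonucleotide (rows, with the transcripts it matches) of Gapdh1, Gpdh1, Pdhb and Tpi, by array (symbols), for dorsal vessel over whole larva (left) and heart over aorta (right). The RB oligonucleotide of Gpdh1 lies left of 0 on all 4 dorsal vessel arrays and the oligonucleotide shared by its 3 transcripts lies right of 0 on all 4; open symbols are below detection, orange is cytosolic and blue mitochondrial.

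Genes of sugar stores moved in both directions against whole larvae. Pgm1 (Pgm), the phosphoglucomutase between glycogen and glycolysis, read 12.1, 13.003, 10.2 and 8.61 RFU in dorsal vessels, against 41.2, 19.7, 33.0 and 27.7 RFU in whole larvae, with ratios of -2.09, -0.77, -1.88 and -0.997. The fit was -1.43 ± 0.33 (adjusted p = 0.0171). Glyp (GlyP), the glycogen phosphorylase that frees glucose-1-phosphate from glycogen, read 3.23, 3.06, 3.04 and 2.07 RFU in dorsal vessels, against 6.94, 5.95, 10.4 and 11.6 RFU in whole larvae. Its ratios of -0.89, -0.78, -1.53 and -1.27 gave a fit of -1.12 ± 0.13 (adjusted p = 0.000919), or 2.17-fold less. The fructose-1,6-bisphosphatase fbp, a gluconeogenic enzyme, was lower by a smaller margin (-0.55 ± 0.15, adjusted p = 0.0273), with ratios of -0.22, -0.043, -1.29 and -0.64, lowest on replicate 3 and near 0 on replicate 2.

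Treh, the trehalase that splits trehalose into glucose, was the exception among cytosolic genes. It read 5.63, 8.82, 7.45 and 3.46 RFU in dorsal vessels, against 4.00, 4.65, 3.62 and 3.54 RFU in whole larvae, higher on replicates 1 to 3 and slightly lower on replicate 4 before normalization. Normalised ratios were 0.19, 0.70, 0.62 and 0.79, above 0 on all 4 arrays, with a fit of 0.57 ± 0.12 (adjusted p = 0.01004), or 1.49-fold more. With median centring in place of loess Treh did not pass (0.60, adjusted p = 0.0528).

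The pyruvate dehydrogenase complex, which links glycolysis to the cycle, had 0 of 4 genes past the test, with 0 at an unadjusted p below 0.05. CG7430, encoding its E3 subunit, dihydrolipoamide dehydrogenase, had ratios of 0.24, 0.20, 0.29 and 0.21, above 0 on all arrays and tightly spaced (fit 0.24 ± 0.13, adjusted p = 0.191). Pdhb (CG11876), the E1 beta subunit, had 0.35, 0.33, -0.16 and 0.22 (fit 0.19 ± 0.17, adjusted p = 0.386). The E1 alpha subunit Pdha (l(1)G0334) and the E2 subunit muc (CG5261) had fits of -0.094 ± 0.17 and -0.23 ± 0.23. For muc the value of replicate 4, at -1.32, lay far below the other 3, which ran between -0.14 and 0.35.

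In the TCA cycle 1 of 8 tested genes was higher and 0 lower, with the same counts at an unadjusted p below 0.05. Idh3g (CG5028), a subunit of the NAD-dependent isocitrate dehydrogenase, read 49.3, 82.8, 62.5 and 30.6 RFU in dorsal vessels, against 20.8, 14.6, 33.1 and 29.4 RFU in whole larvae. Its ratios were 0.77, 2.13, 0.25 and 0.45, above 0 on all 4 arrays and highest on replicate 2, with a fit of 0.90 ± 0.22 (adjusted p = 0.0204). The other 2 subunits of that enzyme did not pass, Idh3a (CG12233) at 0.17 ± 0.26 and Idh3b (CG6439) at -0.20 ± 0.17, and the difference among the 3 was not tested. Citrate synthase kdn (CG3861), which starts the cycle, had ratios of 0.44, 0.51, 0.046 and 0.14, above 0 on all arrays (fit 0.28 ± 0.13, adjusted p = 0.116).

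Of the other cycle genes, CG5214, the E2 subunit of oxoglutarate dehydrogenase, was above 0 on all 4 arrays (0.33 ± 0.15, adjusted p = 0.131). The aconitase mAcon1 (Acon), at 0.29, 0.27, -0.14 and -0.36, split between 2 arrays above and 2 below 0 (fit 0.017 ± 0.14). Ogdh (Nc73EF), the E1 subunit of oxoglutarate dehydrogenase, had -0.33 ± 0.40, with 1 array at -1.65 and the others between -0.19 and 0.39. The mitochondrial malate dehydrogenase Mdh2 (CG7998) had ratios of -0.68, 0.016, -1.39 and 0.069 (fit -0.50 ± 0.27, adjusted p = 0.170). Its fit was 0.15 with median centring, and it passed as lower in the authors' value table (-0.64, adjusted p = 0.0313) and without replicate 4 (-0.87, adjusted p = 0.0298).

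Both cytosolic dehydrogenases beside the cycle lay below 0 on every array. Idh, which makes NADPH from isocitrate, had ratios of -0.62, -0.22, -1.32 and -0.63 and a fit of -0.70 ± 0.14 (adjusted p = 0.00953). Mdh1 (CG5362), the malate dehydrogenase of the malate-aspartate shuttle, had ratios of -1.19, -0.24, -1.73 and -0.20, with replicates 1 and 3 well below 2 and 4. Its fit of -0.84 ± 0.28 did not pass (adjusted p = 0.0511), and it passed in the authors' value table, at -1.07 (adjusted p = 0.0152).

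Set by group, the median ratio of dorsal vessel over whole larva was -0.67 for glycolysis, -0.98 for lactate and glycerol phosphate genes, -0.83 for sugar stores and gluconeogenesis, 0.046 for pyruvate dehydrogenase and 0.096 for the TCA cycle. By array, the 18 cytosolic genes had medians of -0.88, -0.42, -1.30 and -0.54, against 0.29, 0.20, 0.046 and 0.069 for the 13 mitochondrial genes. The cytosolic median was the lower on each of the 4 arrays. Over the fits the cytosolic median was -0.77, and it stayed below 0 under all 15 alternatives (-0.96 to -0.16), whereas the mitochondrial median of 0.017 was -0.19 in the authors' value table and -0.072 without background correction. Replicates 1 and 3 both lay below replicates 2 and 4 for 12 of the 31 genes (38.7%), where 18.9% of all tested genes had that order.

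**Figure D3:**
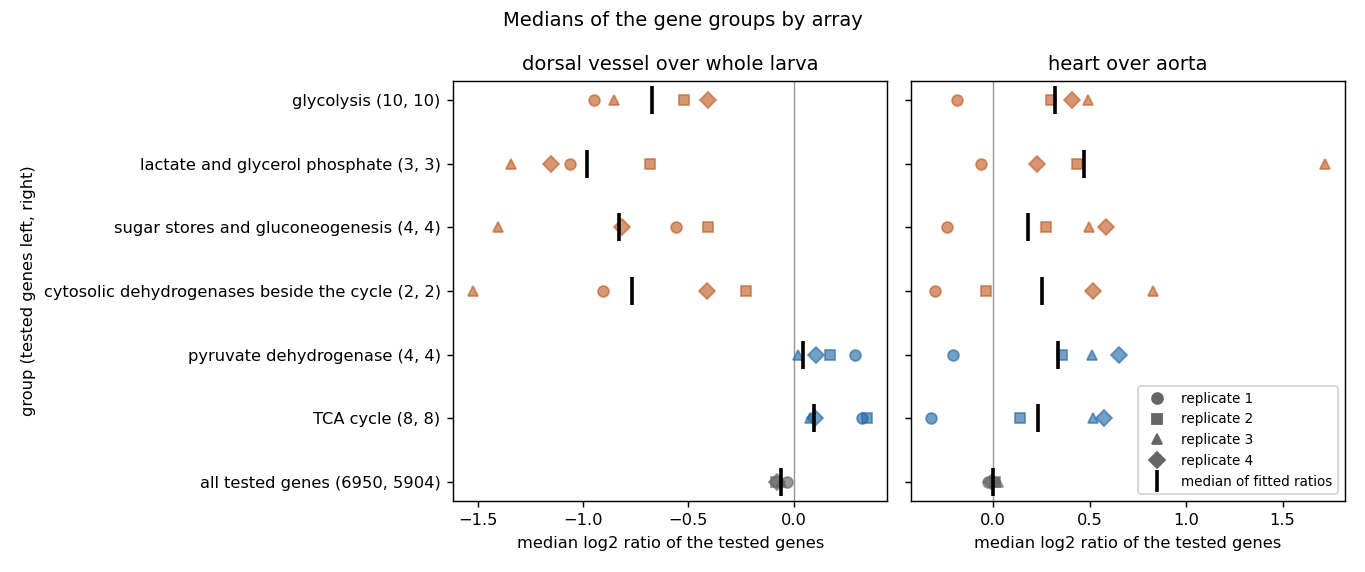
Median log2 ratio of the tested genes in each group (rows, with the number tested in the left and right panel) on each of 4 arrays (symbols), and the median of the fitted ratios (black bar), for dorsal vessel over whole larva (left) and heart over aorta (right). On the left the 4 groups in orange, cytosolic but for Gpo1, lie below 0 on every array while the mitochondrial groups in blue lie at or above 0; on the right replicate 1 lies below 0 and below the other arrays in every group.

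Further genes of the same pathways, 28 in number, came from a second written list. Against whole larvae 20 were tested, 8 of them lower and 3 higher, beside the 21.6% lower and 14.1% higher over all tested genes. The ratio of PCB, the pyruvate carboxylase that feeds oxaloacetate into cycle and gluconeogenesis, was -2.93 ± 0.22 (adjusted p = 0.000151), with 5.17 ± 2.14 RFU in dorsal vessels and 51.7 ± 20.2 RFU in whole larvae (SD, n = 4 each). Tps1, the trehalose-6-phosphate synthase, had ratios of -2.07, -3.14, -3.31 and -2.09 (-2.65 ± 0.23, adjusted p = 0.000298). The trehalose transporter Tret1-1 stood at -2.59 ± 0.47 (adjusted p = 0.00647). The glucose transporter Glut1, below detection on every dorsal vessel array, had a fit of -1.60 ± 0.20 (adjusted p = 0.00123). Set against the detection level, Glut1 was 2.65-fold lower as a mean over the arrays, without an error.

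Pdk, the kinase that switches pyruvate dehydrogenase off, was lower, at -1.01 ± 0.20 (adjusted p = 0.00954). ScsbetaG, a beta subunit of succinyl-CoA synthetase, was lower, at -0.98 ± 0.18 (adjusted p = 0.00633), the 1 cycle gene of either list that was. UGP, which makes the UDP-glucose used for glycogen, was lower, at -0.91 ± 0.12 (adjusted p = 0.00147), while Glys, the glycogen synthase, stood at 0.025 ± 0.16 (adjusted p = 0.910).

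Succinate dehydrogenase, the cycle enzyme built into the respiratory chain, was measured through all 4 subunits. SdhD, SdhB and SdhC, its membrane and iron-sulfur subunits, were higher in the dorsal vessel by 0.98 ± 0.15, 0.90 ± 0.23 and 0.79 ± 0.18 (adjusted p = 0.00316, 0.0233 and 0.0143), and each lay above 0 on all 4 arrays. SdhA, the flavoprotein subunit, had ratios of -0.27, -0.29, 0.19 and 0.14 and did not pass (-0.058 ± 0.091, adjusted p = 0.625).

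Markers of tissues found in the whole larva moved in the same comparison. Of 8 fat body genes 7 were lower in dorsal vessels, their summed brightness running from 47.6 to 138 RFU in dorsal vessels and from 1027 to 2937 RFU in whole larvae. All 7 salivary gland genes were lower (62.2 to 306 RFU in dorsal vessels, 3456 to 4469 RFU in whole larvae). Of 11 tested muscle genes 6 were lower and 0 higher, with sums of 1222 to 2577 RFU in dorsal vessels and 2449 to 3679 RFU in whole larvae and medians by array of -0.43, -0.092, -1.31 and -0.11. Replicate 3 was the lowest array both for muscle genes and for 17 of the 31 metabolic genes (54.8%), where 32.5% of all tested genes were lowest on it. The part of these tissues in the lower sugar pathway genes was not tested.

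**Figure D4:**
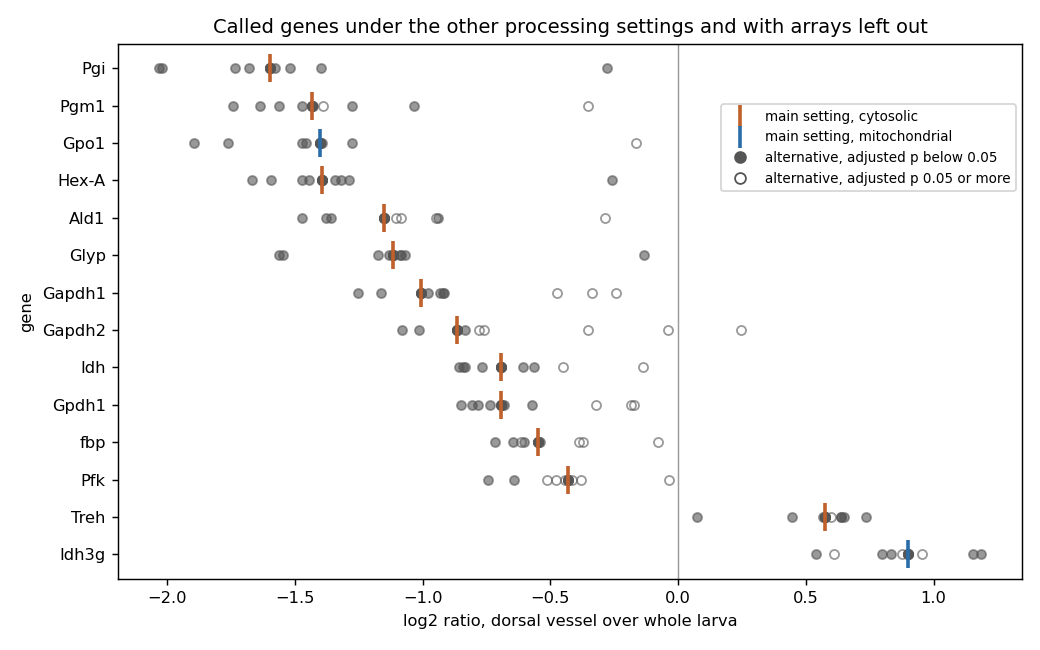
Fitted log2 ratio of dorsal vessel over whole larva (x axis) for the 14 genes past the test (rows), at the main setting (coloured bar) and under each of 15 alternatives (circles, filled where the adjusted p stayed below 0.05), which include leaving out each array. Pgi, Hex-A and Glyp are filled throughout, the circles nearest 0 come mostly from an offset of 50 RFU, and Gapdh2 alone crosses 0.

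The strength of the calls differed from gene to gene. Pgi, Hex-A and Glyp passed under all 15 alternatives tried, with fits of -2.03 to -0.28, -1.67 to -0.26 and -1.56 to -0.13. With median centring in place of loess Gapdh1, Gapdh2, Gpdh1, Idh, Pfk, fbp and Treh did not pass. With any 1 array left out, 8 of the 14 calls passed and 6 were lost at least once. Pfk failed without any of the 4 replicates (adjusted p up to 0.104), Ald1 and fbp without replicate 1, 2 or 3 (up to 0.107 and 0.105), Idh3g without replicate 2, 3 or 4 (up to 0.0786), Gapdh2 without 2 or 3 (up to 0.0576) and Pgm1 without 3 (0.0696). The count of lower genes was 9, 8, 7 and 14 without replicates 1, 2, 3 and 4, where 19.9%, 11.9%, 11.7% and 12.4% of all tested genes were lower.

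Between heart and aorta 1 of these genes passed the test, and their share of calls was near that of all genes. Of 31 genes tested 1 was higher, the glycogen phosphorylase Glyp, and 0 lower, where 1.85% of all 5904 tested genes were higher, 0.728% lower and thus 2.57% called (limma). At an unadjusted p below 0.05 the counts were 9 higher and 0 lower, where 10.3% of all tested genes were higher and 10.3% lower. The fitted ratio lay above 0 for 26 of the 31, with a median of 0.25 against 0.00098 for all tested genes. On all 4 arrays 5 of the 31 lay above 0 and 0 below, where 12.8% and 11.9% of all tested genes did. The compartments lay side by side, with medians of 0.31 for 18 cytosolic and 0.24 for 13 mitochondrial genes.

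**Figure D5:**
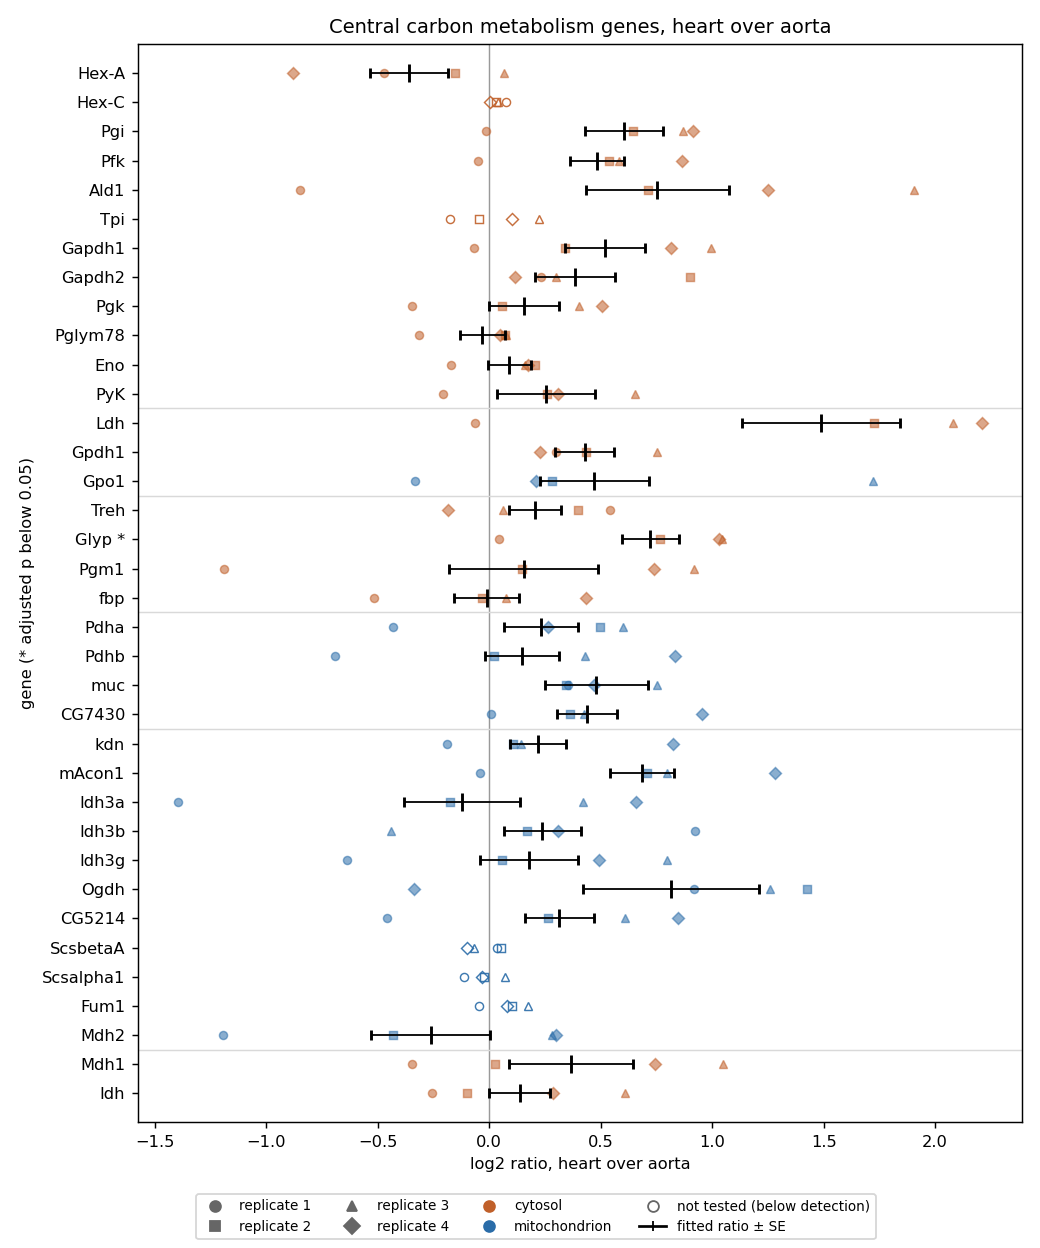
Log2 ratio of heart over aorta (x axis) for each of the 36 genes (rows, in pathway order) on each of 4 arrays (symbols), with the fitted ratio ± SE as a black bar. Replicate 1 (circles) is the lowest array for 24 of the 31 tested genes, Glyp is the 1 gene past the test, and Ldh has 3 arrays between 1.73 and 2.21 with replicate 1 at -0.064.

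Glyp read 3.34, 8.04, 11.8 and 10.7 RFU in hearts, against 2.48, 3.65, 3.37 and 3.25 RFU in aortae. Its ratios were 0.042, 0.77, 1.04 and 1.03, near 0 on replicate 1 and higher on the other 3, with a fit of 0.72 ± 0.13 (adjusted p = 0.0362), or 1.65-fold more. The call of Glyp held in 7 of 16 alternatives and was lost without replicate 2, 3 or 4 (adjusted p = 0.160, 0.0926 and 0.115) and without replicates 1 and 3 together (fit 0.90, adjusted p = 0.144). In these fits 0.339%, 0.678%, 0.915% and 0.0681% of all tested genes were higher, in that order. Among the further pathway genes, UGP had ratios of 0.87, 1.22, 1.54 and 1.12, higher on all 4 arrays, and was the 1 of 21 tested that passed (1.19 ± 0.11, adjusted p = 0.00560). It read 72.9 ± 21.1 RFU in hearts and 24.2 ± 6.94 RFU in aortae (SD, n = 4 each). Glycogen synthase Glys (-0.036 ± 0.16), Tps1 (-0.10 ± 0.23) and SdhA (0.24 ± 0.090) did not pass. Glyp and UGP were higher in heart than in aorta and lower in dorsal vessel than in whole larva. The 2 comparisons share no array, but they were fitted together with 1 spread and 1 dye term per gene. With its 4 arrays fitted alone in limma, Glyp of heart over aorta did not pass (adjusted p = 0.100). In that fit 0.102% of all 5904 tested genes were higher and 0.0339% lower, against 1.85% and 0.728% in the main fit.

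Ldh had the highest fitted ratio of heart over aorta in the set. It read 4.14, 34.6, 40.9 and 56.1 RFU in hearts, against 3.32, 8.08, 6.37 and 7.96 RFU in aortae, with ratios of -0.064, 1.73, 2.08 and 2.21. The heart was the brighter on 3 arrays and the RNAs were level on replicate 1, and the fit of 1.49 ± 0.36 did not pass (adjusted p = 0.0778). Without replicate 1 it passed at 2.00 (adjusted p = 0.0316). Gpdh1 had ratios of 0.30, 0.43, 0.75 and 0.23 (fit 0.43 ± 0.13, adjusted p = 0.129) and its 3 oligonucleotides gave fits of 0.43 ± 0.13, 0.83 ± 0.34 and 0.47 ± 0.13. The RC oligonucleotide read 37.3 RFU in the heart of replicate 3, where the other hearts read 5.68, 7.88 and 7.2997 RFU. Gpo1 (0.47 ± 0.24) likewise read 26.7 RFU in that heart and 2.24 to 4.28 RFU in the others.

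In glycolysis, Pfk had ratios of -0.051, 0.54, 0.58 and 0.86 (fit 0.48 ± 0.12, adjusted p = 0.0847) and Pgi of -0.013, 0.64, 0.87 and 0.91 (fit 0.60 ± 0.17, adjusted p = 0.114). Both had replicate 1 just below 0 and the other 3 above. Hex-A went the other way, with ratios of -0.47, -0.15, 0.066 and -0.88 and a fit of -0.36 ± 0.17 (adjusted p = 0.294). Among the tested genes of glycolysis the spread was widest for Ald1, whose ratios were -0.85, 0.71, 1.91 and 1.25 (0.75 ± 0.32, adjusted p = 0.239). The remaining tested genes of glycolysis had fits between -0.031 for Pglym78, the phosphoglycerate mutase, and 0.52 for Gapdh1. Treh, the second gene of sugar stores, had 0.54, 0.40, 0.062 and -0.18 (0.20 ± 0.12, adjusted p = 0.372).

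In the mitochondrial groups the aconitase mAcon1 came nearest to the threshold, with ratios of -0.040, 0.71, 0.80 and 1.28 and a fit of 0.69 ± 0.14 (adjusted p = 0.0581). It read 55.8 ± 23.2 RFU in hearts and 25.1 ± 5.71 RFU in aortae (SD, n = 4 each). Ogdh had 0.92, 1.43, 1.26 and -0.34 (0.82 ± 0.40, adjusted p = 0.299), above 0 on all but replicate 4. Of pyruvate dehydrogenase, CG7430 had 0.0092, 0.36, 0.42 and 0.96 (0.44 ± 0.13, adjusted p = 0.127) and muc 0.35, 0.35, 0.75 and 0.47 (0.48 ± 0.23, adjusted p = 0.296), and both lay above 0 on all arrays. The other mitochondrial fits ran between -0.26 for Mdh2 and 0.47 for Gpo1. The cytosolic dehydrogenases had -0.35, 0.027, 1.05 and 0.74 for Mdh1 (0.37 ± 0.28, adjusted p = 0.507) and -0.26, -0.099, 0.61 and 0.29 for Idh (0.14 ± 0.14, adjusted p = 0.637).

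The 4 arrays of heart against aorta did not run together for these genes. Medians over the 31 genes were -0.21, 0.26, 0.61 and 0.49 on replicates 1 to 4, and 24 genes (77.4%) had their lowest ratio on replicate 1, where 36.6% of all tested genes did. Markers of other tissues differed on the same arrays. Midgut genes had medians of 3.40, 0.47, -3.96 and -1.32, salivary gland genes of 3.23, 2.27, -3.08 and 0.15 and testis genes of 3.31, -0.60, -2.77 and 0.14, each farthest above 0 on replicate 1 and farthest below 0 on replicate 3. Their summed brightness ran from 30.2 to 1054 RFU in hearts and 42.8 to 1322 RFU in aortae for midgut, 159 to 2941 RFU and 98.8 to 1680.1 RFU for salivary gland, and 32.1 to 693 RFU and 23.5 to 448 RFU for testis. The highest salivary gland sum was that of the heart of replicate 2 and the highest midgut sum that of the aorta of replicate 4. Cuticle genes had medians of 1.85, -0.27, 4.38 and 1.64 (847 to 2632 RFU in hearts, 156 to 778 RFU in aortae), with 3 of 4 higher at an unadjusted p below 0.05 and 0 past the test, and fat body genes had medians of 0.74, -0.082, 0.011 and -1.29. Of 6 hemocyte genes 4 were higher in the heart (561 to 1222 RFU in hearts, 128 to 225 RFU in aortae). Of 10 tested muscle genes 0 passed, 6 being higher and 0 lower at an unadjusted p below 0.05, with a median ratio of 0.66 (1799.7 to 3479.6 RFU in hearts, 1156 to 2448 RFU in aortae). Their part in the ratios above was not tested. Replicates 1 and 3, whose midgut, salivary gland and testis medians lay farthest from 0 in opposite directions, were also left out together. The arrays that held the highest salivary gland and midgut sums were kept. In that fit 0 of the 31 genes were higher and 0 lower, where 0.0681% of all 5874 tested genes were higher and 0.0681% lower. The median over the cytosolic genes was 0.36 and over the mitochondrial genes 0.41.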

How the data were processed

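Dual-dye arrays measured 8 RNA pairs, 4 of heart against aorta and 4 of dorsal vessel against whole larva, which the labels give as biological replicates with dyes swapped on 2 of each 4. The spot intensity values were deposited as scanner output in RFU, per the file headers, before background correction, and the authors also deposited a log2 ratio per spot whose normalization is not given in the sources used here beyond limma, named in the submitters' processing notes. That log2 table ran as aorta over heart, so its sign was turned for the first comparison, and as dorsal vessel over whole larva for the second.

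Intensities were scaled to 16 bit (by 36.9), corrected with normexp and an offset of 50 (1.35 RFU) and normalised within arrays by loess (span 0.3, 4 iterations) in limma 3.58.1 under R 4.3.3, with control spots and the 6 to 112 marked spots of an array given no weight. Repeated spots entered as their mean, and where a gene had several oligonucleotides the brightest was taken. Detection required, on 2 or more of 4 arrays in 1 RNA, a signal over the 95th percentile of negative controls and empty positions. All 8 arrays were fitted with 3 coefficients (both comparisons and a shared dye effect), 5 residual degrees of freedom and eBayes. Benjamini-Hochberg adjusted p-values cover all tested genes of a comparison at a threshold of 0.05, and their precision is limited by the number of arrays. The procedure was tested on simulated data. Figures were drawn with matplotlib 3.10.9.

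Members and lists were chosen with earlier results of these data known. Per-array values are given for the 12 genes with the highest called ratios in either direction and for at least 2 genes of each role group by adjusted p, and the rest are given by fits and counts; among the further pathway genes, up to 10 called ratios are named, and SdhA, Glys and Tps1 as their partners. Further per-array values lie outside this rule and were picked after they were seen. They are those of Pfk, fbp, PyK, Ldh, mAcon1 and Mdh2 against whole larvae, and of Hex-A and Ald1 of heart over aorta. Oligonucleotides were matched to genes through the symbols, locus tags and older identifiers of the files. No sequences were used here.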

Additional observations from a re-analysis of the deposited data

Results flagged for a closer look

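Of 62 sets of 4 array ratios, 2 held an array that stood far from the other 3, where chance marks about 1 in 20. Both were on replicate 1 of heart against aorta. Pglym78 had -0.317 there and between 0.048 and 0.075 on the others, the gap being 0.931 of the whole range. Eno had -0.173 there and between 0.16 and 0.20 on the others, a gap of 0.882 of the range. Both genes were dim, and neither passed the test.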

How the results depend on the processing

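With 4 arrays a comparison, dim spots and a shared dye term, the counts moved with the settings. The main counts were 12 genes lower and 2 higher in dorsal vessel than in whole larva, and 1 higher and 0 lower in heart than in aorta. Over all tested genes the main shares were 21.6%, 14.1%, 1.85% and 0.728%, and they moved with the settings too. An offset of 50 RFU, far above most spots, left 3 lower in dorsal vessel and 0 higher in heart (13.3% and 0.627% of all tested genes). Median centring in place of loess left 6 lower and 1 higher in dorsal vessel and 0 higher in heart (14.4%, 12.1% and 1.44% of all tested genes). It moved the median of all genes of the heart comparison to 0.16. Without a dye coefficient 1 was higher in dorsal vessel and 0 in heart (12.5% and 1.51% of all tested genes). The genes higher in heart numbered 2 without background correction and in the authors' value table (2.15% and 2.34% of all tested genes). They numbered 3 with detection on all 4 arrays and with a dye coefficient for each comparison (4.18% and 3.86%). With no detection filter or with the 4 arrays fitted alone they numbered 0 (0.368% and 0.102%). With 1 replicate left out the genes lower in dorsal vessel numbered 7 to 14, those higher in dorsal vessel 1 to 2 and those higher in heart 0 to 2. Over all tested genes the shares were 11.7 to 19.9%, 7.05 to 9.99% and 0.339 to 0.915%. The lowest count of 7 came without replicate 3, where 11.7% of all tested genes were lower. Chosen after seeing the data, the fit without replicates 1 and 3 of heart against aorta gave 0 higher in heart (0.0681% of all tested genes). Testing every oligonucleotide on its own, also chosen after seeing the data, changed no count. In heart 0 genes were lower under any of these settings, where 0.0339 to 3.69% of all tested genes were lower in the fits by gene. Gapdh2 reversed in dorsal vessel in the authors' value table, at 0.245. The cause was not tested for any of these changes. Over single genes and settings against whole larvae, 407 ratios stayed called or uncalled, 39 lost and 12 gained the call. The 1 reversed was that of Gapdh2, which lost its call and changed sign. Of heart over aorta 477 stayed called or uncalled, 9 lost and 7 gained the call. Changes of sign in ratios that did not pass are not counted there. For example, fbp of heart over aorta kept its sign in 10 of 16 alternatives. No paired analysis was possible beyond that within arrays, because the 2 RNAs of a replicate number share an array, whose ratio already pairs them. The fits of these ratios therefore kept the pairing, and the 2 comparisons were not set against each other.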
